A study of Mus musculus with 4 samples.

Results

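Transcription factors that are tied to the naive and resting state of T cells were followed in T cells of the CD4 and CD8 subsets, sorted from spleens of mice that the labels call Gfi1 knockout or wildtype. The set holds 7 genes (Lef1, Tcf7, Bach2, Satb1, Foxo1, Foxp1 and Myb), and its members are all probe sets that the platform annotation assigns to one of these symbols alone. That gave 19 of the 22690 probe sets on the array, for 6 of the 7 genes. No probe set carried the symbol Tcf7 in the annotation used, so Tcf7, which encodes TCF1, was not analysed here.

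The study compared untreated C57Bl/6 mice that carried or lacked Gfi1, which encodes a zinc finger repressor of transcription, with naive cells as its stated aim. There were 4 groups: CD4+ CD44lo and CD8+ CD44lo cells of mice labelled Gfi1 knockout, and the same fractions of mice labelled wildtype. Spleen cells were sorted by flow cytometry after staining for CD44, CD4 and CD8, and each group has 1 Affymetrix MOE430A_2.0 array that holds the pooled RNA of 2 mice. The labels give neither the age of the mice nor the Gfi1 allele. Titles of the knockout samples end in N and those of the wildtype samples in M, and the labels do not say what these letters mean.

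Values are linear signal intensities as the authors deposited them. No group has a replicate, so the spread between animals is unknown, and precision is limited by how few arrays there are. Cd44, an adhesion receptor gene that antigen-experienced T cells express strongly, goes against the shared CD44lo label: its signal was 196 in CD4 and 252 in CD8 cells under the knockout label, against 8136 and 5740 under the wildtype label. Gfi1 itself had a signal of 2891 in CD4 and 2447 in CD8 cells under the knockout label, against 2272 and 1158 under the wildtype label, so it was not lower where the knockout label stands. No source used here says whether the probe set lies in the deleted part. Genotype is therefore given as labelled throughout, and a difference by genotype label cannot be told apart from the difference in Cd44 that runs with it. The subset labels matched their markers, with Cd4 at 5470 and 5901 on the CD4 arrays against 8.4 and 18.9 on the CD8 arrays. Cd8a read 89.6 and 67.2 on the CD4 arrays against 16639 and 15920 on the CD8 arrays. Cd8b1 had some signal on the CD4 arrays, at 970.5 under the knockout and 312.1 under the wildtype label. On the CD8 arrays it read 25715 and 26222.

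In naive T cells most of these factors, MYB aside, help to hold a resting, self-renewing and lymph node-homing program in place. LEF1 and its relative TCF1 are high-mobility-group proteins that bind DNA in the Wnt pathway and in T cell development. FOXO1, a forkhead factor that growth signals send out of the nucleus through the kinase AKT, activates homing and survival genes, while the forkhead factor FOXP1 keeps naive cells quiescent. BACH2 represses effector genes together with small MAF proteins, and SATB1 organises chromatin in T cells and thymocytes. MYB is an activator of progenitor cells and thymocytes that is also induced when lymphocytes enter the cell cycle.

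Upstream sequences are shown for Lef1 and Satb1, whose signal patterns over the arrays were the closest to each other, for Myb, which ran the other way, and for Foxo1, which was nearly level. Each is the 250 bases before the annotated start farthest upstream in RefSeq's table of the mouse build GRCm38.p6, 5′ to 3′, with motif matches in capitals.
Lef1, chr3:131110047-131110296, plus strand: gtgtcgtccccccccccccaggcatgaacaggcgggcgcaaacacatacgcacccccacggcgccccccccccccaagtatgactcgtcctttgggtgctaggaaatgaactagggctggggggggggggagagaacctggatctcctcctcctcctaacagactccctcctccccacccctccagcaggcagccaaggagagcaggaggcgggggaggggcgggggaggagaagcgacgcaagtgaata
Satb1, chr17:51833291-51833540, minus strand: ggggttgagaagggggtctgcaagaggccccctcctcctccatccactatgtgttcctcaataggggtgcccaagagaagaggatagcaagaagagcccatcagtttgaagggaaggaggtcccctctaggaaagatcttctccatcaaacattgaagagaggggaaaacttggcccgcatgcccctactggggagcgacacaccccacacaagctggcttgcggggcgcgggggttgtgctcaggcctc
Myb, chr10:21160985-21161234, minus strand: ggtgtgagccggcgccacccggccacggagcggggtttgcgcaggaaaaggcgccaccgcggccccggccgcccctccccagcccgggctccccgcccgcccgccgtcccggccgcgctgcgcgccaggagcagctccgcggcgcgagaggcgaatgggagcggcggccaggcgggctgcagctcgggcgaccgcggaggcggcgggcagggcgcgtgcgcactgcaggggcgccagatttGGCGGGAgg
Foxo1, chr3:52268087-52268336, plus strand: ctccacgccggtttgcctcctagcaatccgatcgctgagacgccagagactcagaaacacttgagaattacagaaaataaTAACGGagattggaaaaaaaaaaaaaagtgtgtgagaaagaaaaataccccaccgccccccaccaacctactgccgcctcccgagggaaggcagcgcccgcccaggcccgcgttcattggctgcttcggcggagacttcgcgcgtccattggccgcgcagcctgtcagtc

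Such windows of all 7 genes, those shown and the others, were searched on both strands for 6 motifs. The Tcf7 window, not shown, holds an atg followed by codons without a stop up to its end, so it may include coding sequence. The letters were CTTTGAA for TCF and LEF factors, GTAAACA for forkhead factors of the FOXO kind, TAACGG for MYB, TGCTGAG for BACH and MAF proteins, AATCAC for GFI1 and GGCGGGA for E2F, the last of these chosen after the sequences were read. The matches shown do not overlap each other. The MYB letters lay in the Foxo1 window, 170 bases before the start, and in 1 of the 7 windows in all, against 2.18% of 32851 windows in the table. The E2F letters lay in the windows of Myb, 9 bases before the start, and Foxp1, 120 bases before it, against 9.75% of windows. None of the 7 windows held the TCF/LEF letters (4.46% of windows), the FOXO letters (3.17%), the BACH and MAF letters (6.21%) or the GFI1 letters (9.14%). These matches describe letters in a short window only.

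In CD4 cells, 4 of the 6 measured genes (Lef1, Bach2, Satb1 and Foxp1) read over 1.5-fold higher on the array labelled knockout, 1 (Myb) over 1.5-fold lower, and Foxo1 was nearly level. Over 8629 genes that exceeded the floor on 1 array or more, 7.25% passed 1.5-fold upward and 14.6% downward in this comparison. The floor is a signal of 93.9, the 40th percentile of all values, below which signals were set to it. Each gene is summed up here by its strongest probe set on average. In CD8 cells only Bach2 passed 1.5-fold upward (4.11% of all genes) and only Myb downward (9.27%), and these were also the genes that passed it in both subsets (1.34% of all genes higher, 4.73% lower). For the 6 genes the median log2 difference stood at 1.13 (CD4) and 0.29 (CD8), and for all 8629 genes at 0.0 in both subsets. At each side stands 1 array, so these differences have no test. In such bulk samples, fewer cells of a type and less RNA per cell cannot be told apart.

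**Figure D1:**
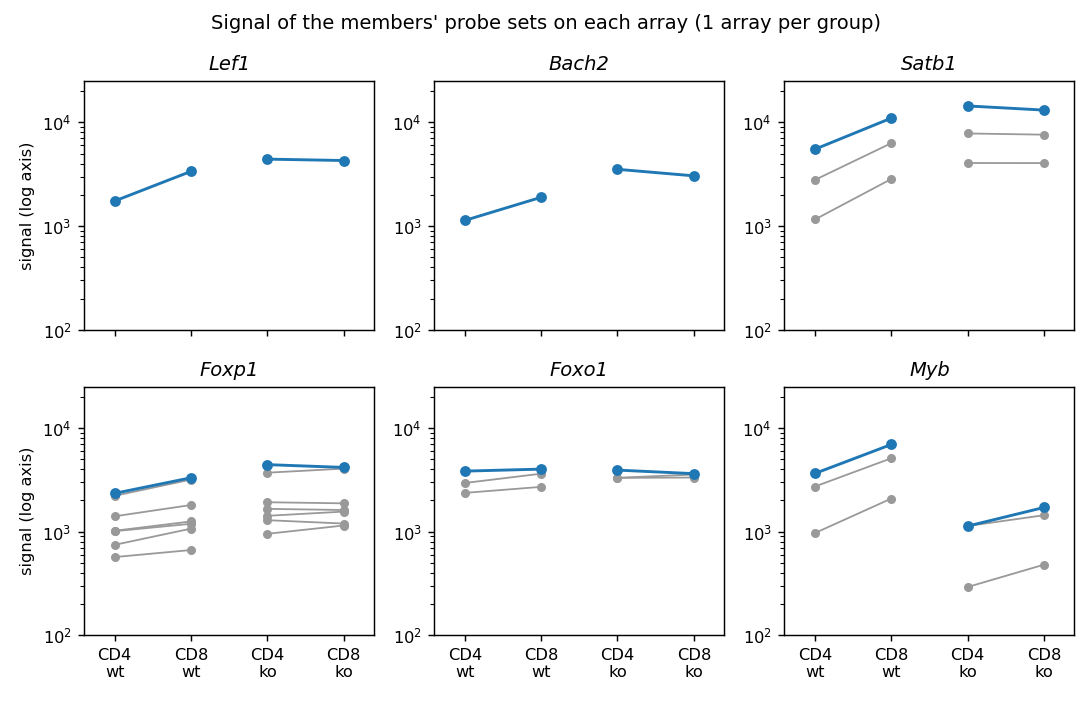
Signal (log axis) of each probe set of the 6 genes on each array, with CD4 and CD8 cells labelled wildtype (wt) and knockout (ko) along the horizontal axis. Blue points are the probe set with the highest mean of each gene, grey points its other probe sets, and lines join the CD4 and CD8 arrays of a labelled genotype; Satb1 is lowest on the array labelled wildtype CD4 in all 3 probe sets, and Myb is lower on both arrays labelled knockout.

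Lef1, with 1 probe set, read 4419 on the array labelled knockout CD4, 4285 on knockout CD8, 1746 on wildtype CD4 and 3371 on wildtype CD8. One array is low, that labelled wildtype CD4, and the other 3 lie within a narrow range. Signal under the knockout label was thus 2.53-fold higher for CD4 cells, and 1.27-fold higher for CD8 cells.

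Satb1 had 3 probe sets, and the strongest read 14385 on knockout CD4, 13119 on knockout CD8, 5506 on wildtype CD4 and 10978 on wildtype CD8. The array labelled wildtype CD4 again stands alone at the bottom. All 3 probe sets gave this order of low and high, with the array labelled knockout 2.61-fold to 3.5-fold higher in CD4 and 1.2-fold to 1.42-fold higher in CD8 cells. Probe sets of a gene read the same RNA and are not replicates.

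Bach2, whose product represses effector genes, read 3525 on knockout CD4, 3050 on knockout CD8, 1134 on wildtype CD4 and 1895 on wildtype CD8. Both arrays labelled wildtype lie below both labelled knockout. The differences were 3.11-fold in CD4 and 1.61-fold in CD8 cells.

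Foxp1 had 7 probe sets, of which the strongest read 4423 on knockout CD4, 4158 on knockout CD8, 2340 on wildtype CD4 and 3307 on wildtype CD8. All 7 were higher on the array labelled knockout in both subsets, by 1.37-fold to 1.89-fold in CD4 and by 1.04-fold to 1.72-fold in CD8 cells. Of the 7, 5 reached 1.5-fold in CD4 cells (7.98% of all probe sets) and 1 in CD8 cells (4.6%). Foxp1 thus had the same direction as Lef1, Satb1 and Bach2 and a smaller size in CD4 cells.

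Over these 4 genes, all 12 probe sets were lowest on the array labelled wildtype CD4, and all 12 were higher on the array labelled knockout in both subsets. Among all 15273 probe sets that exceeded the floor anywhere, 26.9% were lowest on wildtype CD4 and 26.0% were higher on the array labelled knockout in both subsets. These 4 genes were grouped by their higher CD4 signal under the knockout label, which favours both counts. Of the 12 probe sets, 7 are of Foxp1. Among all 18 member probe sets above the floor, 15 were higher under the knockout label in CD4 and 13 in CD8 cells. Of the 15 that are not of Myb, 14 were lowest on wildtype CD4. The difference between the labels was larger in CD4 than in CD8 cells for 11 of the 12 probe sets of the 4 genes. The exception was the weakest Foxp1 probe set, at log2 values of 0.74 and 0.78. By the summary probe sets, Lef1, Satb1 and Bach2 lay at least 1.5-fold below each of the other 3 arrays on wildtype CD4, as did 2.29% of all genes. The difference between the subsets leaves no degree of freedom and was not tested.

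Foxo1 had 4 probe sets and was nearly level. The strongest read 3917 on knockout CD4, 3621 on knockout CD8, 3831 on wildtype CD4 and 4004 on wildtype CD8, a log2 difference of 0.03 in CD4 and -0.15 in CD8 cells. With arrays centred on their medians, which moves the median of all genes to 0.33 in CD4 and 0.21 in CD8 cells, the CD8 value turned to 0.07. Another probe set read 3296, 3323, 2944 and 3619 in the same order, and a further one 3304, 3552, 2364 and 2701, which is 1.4-fold (CD4) and 1.32-fold (CD8) higher under the knockout label. The last lay below the floor on all 4 arrays, at 6.0 to 40.6. The Foxo1 probe sets thus do not share 1 direction in CD8 cells.

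Myb ran opposite to Lef1, Satb1, Bach2 and Foxp1. Its strongest probe set read 1130 on knockout CD4, 1710 on knockout CD8, 3638 on wildtype CD4 and 6918 on wildtype CD8. Both arrays labelled knockout lie below both labelled wildtype, and within each label CD8 lies above CD4. The other probe sets read 1134, 1440, 2722 and 5094, and 293, 480, 970 and 2084, in the same order of arrays. Over the 3 probe sets, signal under the knockout label was lower by 2.4-fold to 3.31-fold for CD4 cells, and by 3.54-fold to 4.34-fold for CD8 cells.

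**Figure D2:**
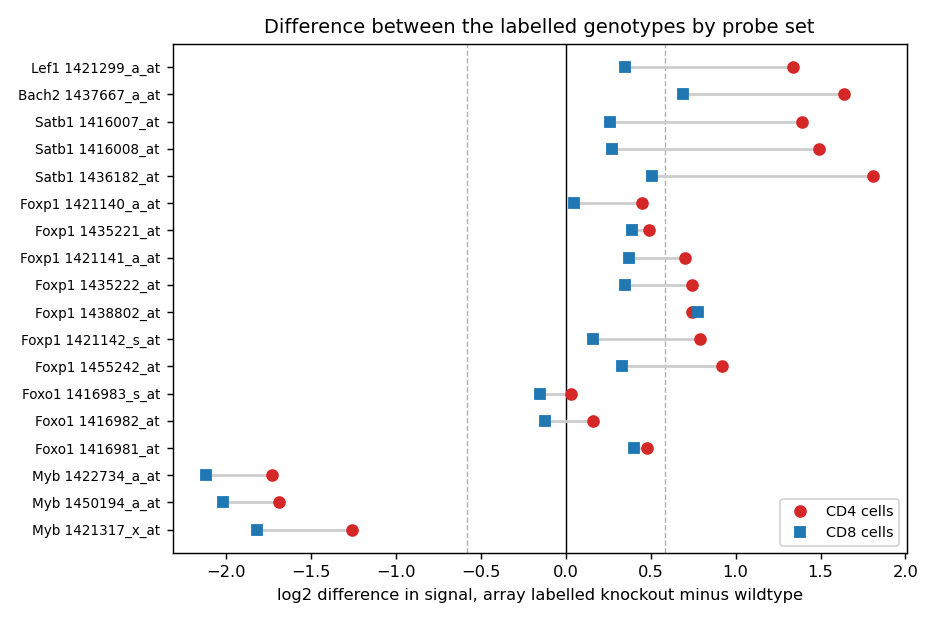
Log2 difference in signal between the array labelled knockout and that labelled wildtype for each of the 18 probe sets above the floor (horizontal axis), in CD4 cells (red circles) and CD8 cells (blue squares), with dashed lines at 1.5-fold. Lef1, Bach2 and Satb1 lie at 1.34 or more in CD4 cells and at 0.69 or less in CD8 cells, while all 3 Myb probe sets lie at -1.26 or lower.

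With subset as a covariate, limma called 3 of the 18 member probe sets above the floor by genotype label, and all 3 were of Myb. Of all 15273 probe sets, 0.288% were called higher and 0.851% lower under the knockout label, at a Benjamini-Hochberg adjusted p under 0.05. Myb fell by 1.85 ± 0.14 (log2, SE) in its strongest probe set, lower in 2 of 2 subsets, with an adjusted p of 0.00355 in limma, and the other probe sets had 0.0133 and 0.0188. The remaining 15 probe sets were not called: Bach2 was at 1.16 ± 0.22 (adjusted p = 0.0686 in limma), Lef1 at 0.84 ± 0.23 (adjusted p = 0.158), Satb1 between 0.82 and 1.16 (adjusted p from 0.12 to 0.21), Foxp1 between 0.25 and 0.76 (adjusted p from 0.16 to 0.579) and Foxo1 between -0.06 and 0.44 (adjusted p from 0.191 to 0.976). With 1 residual degree of freedom, the error of this fit is the disagreement between the subsets, moderated by other probe sets, and not a spread between animals. Without the trend in limma's prior the strongest Myb probe set had an adjusted p of 0.102.

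CD8 cells read higher than CD4 cells on the arrays labelled wildtype for every member, while on those labelled knockout the subsets lay within 1.2-fold of each other for all members but Myb. On wildtype-labelled arrays CD8 was above CD4 by 1.93-fold for Lef1, 1.67-fold for Bach2, 1.99-fold to 2.45-fold for Satb1, 1.17-fold to 1.43-fold for Foxp1 and 1.05-fold to 1.23-fold for Foxo1. On knockout-labelled arrays Lef1 was 1.03-fold and Bach2 1.16-fold lower in CD8, Satb1 was 1.0-fold to 1.1-fold lower, and Foxp1 and Foxo1 had probe sets on either side. Myb was higher in CD8 under both labels, by 1.87-fold to 2.15-fold for wildtype and 1.27-fold to 1.64-fold for knockout. Limma called none of the 18 probe sets for subset, against 0.321% of all probe sets, and 3, those of Myb, had an unadjusted p under 0.05 (adjusted p from 0.119 to 0.274 in limma).

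Patterns were also compared across the 4 arrays by the root mean square difference of log2 signals, each gene centred on its own mean, over the 6882 genes that exceeded the floor everywhere. For Lef1 the closest of the 6881 other genes was Satb1, at 0.037, and Satb1 had Lef1 as its closest in turn. Slc17a9, a vesicular nucleotide transporter gene, came next for both (0.075 from Lef1 and 0.08 from Satb1), followed by Cast, the calpain inhibitor gene, for Lef1 (0.08) and by the ubiquitin ligase gene Siah1a for Satb1 (0.084). Bach2 was closest to Ccr7, the receptor gene for entry into lymph nodes, at 0.045, then to Shoc2, a scaffold gene of RAS signalling (0.059), and to the kinase gene Sgk3 (0.061). Ccr7 read 15625 on knockout CD4, 12549 on knockout CD8, 4805 on wildtype CD4 and 8380 on wildtype CD8. Seen from Lef1, Bach2 ranked 44 and Foxp1 54, while Foxo1 ranked 3204 and Myb 6767. Myb had no close match: its nearest were Lrrk1, a kinase gene (0.161), the interferon regulatory factor gene Irf5 (0.222) and the metalloprotease gene Adam8 (0.287). With 4 arrays such likeness is a description only.

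Markers of other cells differed between the arrays, some in the direction of Myb in 1 subset or in both. The 7 measured cycling cell markers summed to 1752 on knockout CD4, 3467 on knockout CD8, 19553 on wildtype CD4 and 9403 on wildtype CD8. Under the knockout label the sum was higher in CD8 cells, as Myb was, and under the wildtype label it was higher in CD4 cells, where Myb was lower. MHC class II genes, all 4 above the floor on every array, summed to 46620 on the array labelled wildtype CD8, where Myb was highest, against 1443 to 4034 on the other 3. All 5 dendritic cell markers were above the floor there, with a sum of 2094, against 219 to 406 on the others, where 0 to 2 were. In CD4 cells, where Myb was lower under the knockout label, the MHC class II sum (4034 against 3780) and the dendritic sum (406 against 316) were not. All 5 dendritic markers were below the floor on wildtype CD4. On knockout CD4 the 2 above it were close to it, Itgax at 102.7 and Zbtb46 at 98.5, so the dendritic sums give no direction in CD4 cells. Of the 3 measured natural killer cell markers, Ncr1 was below the floor everywhere, and the list summed to 152 on knockout CD4, 208 on knockout CD8, 3903 on wildtype CD4 and 2325 on wildtype CD8, lower under the knockout label in both subsets as Myb was. Klrk1 and Klrg1, which make up nearly all of that sum, are also expressed by effector T cells. The 3 macrophage markers summed to 328, 342, 435 and 865 in the same order, highest on wildtype CD8. Of 6 measured B cell markers, Cd79a, Ms4a1 and Pax5 were below the floor on all 4 arrays, while Ighm read 10871 to 16664. Cd79b read 57.1 on knockout CD4, 737.5 on knockout CD8, 305.1 on wildtype CD4 and 759.1 on wildtype CD8, and Blk exceeded the floor only on wildtype CD8, at 199.9. Of 5 immature thymocyte markers, Rag1, Rag2 and Ptcra were below the floor throughout and the other 2 above it on all 4 arrays. Dntt read 97.2 to 355, lowest on wildtype CD8, and Cd24a 141.2 to 1015.5, highest on wildtype CD8. The part of any of these lists in the Myb result was not tested.

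**Figure D3:**
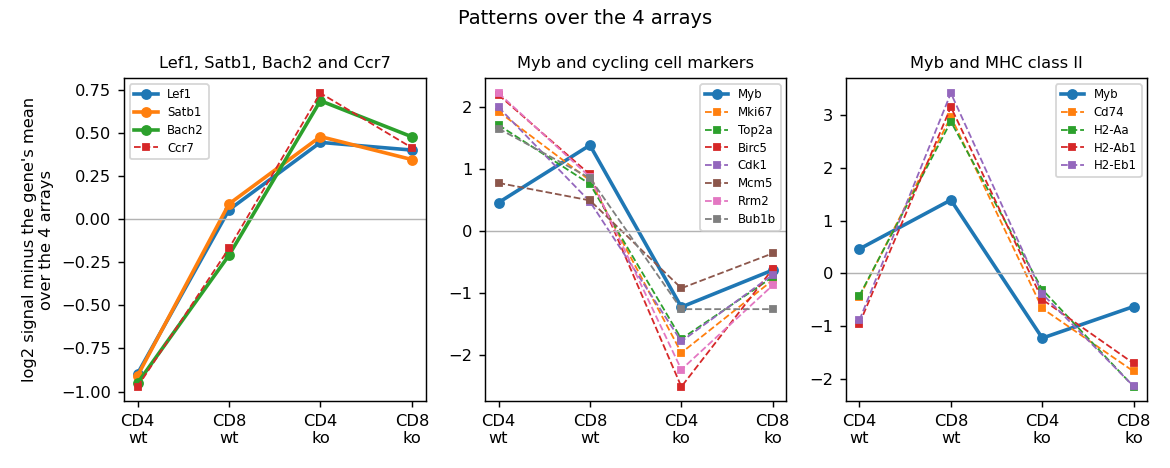
Log2 signal of each gene minus its own mean over the 4 arrays (vertical axis), for the arrays labelled wildtype (wt) and knockout (ko) in CD4 and CD8 cells, with members as solid lines and other genes as dashed lines. Lef1, Satb1, Bach2 and Ccr7 are all lowest on wildtype CD4. The cycling cell markers peak on wildtype CD4, while Myb and the MHC class II genes peak on wildtype CD8.

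Naive T cell markers followed Lef1, Satb1 and Bach2. The 3 that were measured, Ccr7, Il7r and Igfbp4, summed to 60987 on knockout CD4, 50227 on knockout CD8, 21040 on wildtype CD4 and 29911 on wildtype CD8. Of these, Igfbp4 had its lowest signal on wildtype CD8 (1826) and the other 2 on wildtype CD4. Regulatory T cell markers were highest on the array where Lef1, Satb1 and Bach2 were lowest. All 4 (Foxp3, Ctla4, Ikzf2 and Il2ra) were above the floor on wildtype CD4, with a sum of 6127, against 439 to 859 and 1 or 2 markers on the others. The part of either list in the values of the factors was not tested.

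Other genes around the members were followed as 7 lists. Their counts and medians are of the values as deposited and were not recomputed under other scalings. Over all 8629 genes above the floor on 1 array or more, 7.25% passed 1.5-fold upward and 14.6% downward in CD4 cells. In CD8 cells the shares were 4.11% upward and 9.27% downward, and in both subsets 1.34% and 4.73%. Of 9 measured paralogues of the members, 5 were above the floor, of which 2 were at least 1.5-fold lower in CD4 cells and none passed 1.5-fold in CD8 cells. Foxo3, the close relative of Foxo1, read 1065 on knockout CD4, 978 on knockout CD8, 1488 on wildtype CD4 and 1215 on wildtype CD8. Mybl2, the family member tied to cell division, was near or below the floor throughout, at 50.2 to 175.5. Among 15 partners and upstream regulators above the floor, 3 passed 1.5-fold upward and 2 downward in CD4 cells, and 2 passed it upward in both subsets and none downward. Those higher in both were Maff, a small MAF gene, and Tle1, which encodes a Groucho corepressor that TCF and LEF factors bind. Those past 1.5-fold downward in CD4 cells were Tle3 and Mafg, of the same families. On the log2 scale Tle3 was at -0.6 (CD4) and -0.38 (CD8), and Tle4 at -0.3 (CD4) and -0.45 (CD8). Mafg was at -1.74 (CD4) and 0.53 (CD8), and Mafk at 0.54 (CD4) and -0.07 (CD8). The Groucho and small MAF genes thus did not share 1 direction. Tle1 read 504 on knockout CD4, 724 on knockout CD8, 238 on wildtype CD4 and 312 on wildtype CD8 (adjusted p = 0.145 in limma). The beta-catenin gene Ctnnb1 was nearly level, with log2 differences of -0.15 in CD4 and -0.22 in CD8 cells as deposited.

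Of 19 other naive and quiescence factors above the floor, 3 passed 1.5-fold upward in CD4 cells (7.25% of all genes). In CD8 cells 2 did (4.11%), and 1 did in both subsets (1.34%). The last was Peli1, a ubiquitin ligase gene, at 0.59 and 0.86 on the log2 scale. None passed 1.5-fold downward in CD4 (14.6%) or CD8 cells (9.27%). Limma called none of the 19 (adjusted p = 0.067 for Peli1). The list's median log2 differences were -0.02 in CD4 and 0.02 in CD8 cells, close to those of all genes. Tsc22d3, the glucocorticoid-induced leucine zipper gene, had the largest CD4 difference of the list, at 15600 on knockout CD4, 12439 on knockout CD8, 4441 on wildtype CD4 and 8757 on wildtype CD8. Klf2, a zinc finger factor that FOXO1 activates, read 15207, 12817, 8784 and 13923 in that order.

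Reported FOXO1 targets split in CD4 cells. Of 10 above the floor, 4 passed 1.5-fold upward there (Ccr7, Il7r, Klf2 and the egress receptor gene S1pr1) and 3 downward (Gadd45a, Ctla4 and Foxp3), and none passed 1.5-fold in CD8 cells. Ctla4 and Foxp3 are regulatory T cell genes as well. For the counts of this and the next 2 lists, the shares of all genes were 7.25% upward and 14.6% downward in CD4 cells. They were 4.11% and 9.27% in CD8 cells, and 1.34% and 4.73% in both subsets. Of 8 reported TCF1 and LEF1 targets above the floor, 2 passed 1.5-fold upward and 3 downward in CD4 cells, and 2 passed it downward in both subsets, Eomes and Bcl6, and Eomes was called by limma (adjusted p = 0.0101). Lef1 is itself in that list. Of 6 reported MYB targets above the floor none moved past 1.5-fold in both subsets, and the median was -0.17 in each. In CD4 cells 5 of the 6 did, 2 upward (Bcl2 by 2.03-fold and Ada by 1.98-fold) and 3 downward (Kit, Ccne1 and Gata3).

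Most effector transcription factors read lower under the knockout label in CD4 cells, and fewer of them did by 1.5-fold in CD8 cells. Of 10 above the floor on at least 1 array, 8 passed 1.5-fold downward in CD4 cells (14.6% of all genes), 5 in CD8 cells (9.27%) and 4 in both (4.73%). None passed it upward in either, and the median log2 differences were -2.2 in CD4 and -0.57 in CD8 cells. Only 6 of these genes were above the floor on all 4 arrays. Bhlhe40 and Zeb2 entered the list counts only through arrays labelled wildtype, so that they could not read higher under the knockout label. For CD8 cells, Bhlhe40, Zeb2 and Prdm1 were set against a floored array labelled knockout. In CD8 cells Runx3 and Batf had log2 differences of 0.30 and 0.35, and Rora one of -0.12. Limma called the T-box genes Tbx21 (adjusted p = 0.0448) and Eomes as lower, against 0.851% of all probe sets. Tbx21, the T-bet gene, read 65.6 on knockout CD4, 864 on knockout CD8, 2689 on wildtype CD4 and 3599 on wildtype CD8, a drop of at least 28.6-fold for CD4 cells and of 4.16-fold for CD8 cells. Bhlhe40, a helix-loop-helix factor of activated T cells, read 51.9, 41.5, 1537 and 374 in that order. It was below the floor on both arrays labelled knockout and entered the fit only through the arrays where it is high, so that its limma call is not counted here. Eomes, which is related to Tbx21, read 187, 1741, 717 and 5660. Prdm1 encodes BLIMP1 and is reported to be repressed by BACH2. Its signal was 143 on knockout CD4, 51.7 on knockout CD8 (below the floor), 773 on wildtype CD4 and 145 on wildtype CD8 (adjusted p = 0.189 in limma). A relation between Prdm1 and Bach2 signal was not tested.

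**Figure D4:**
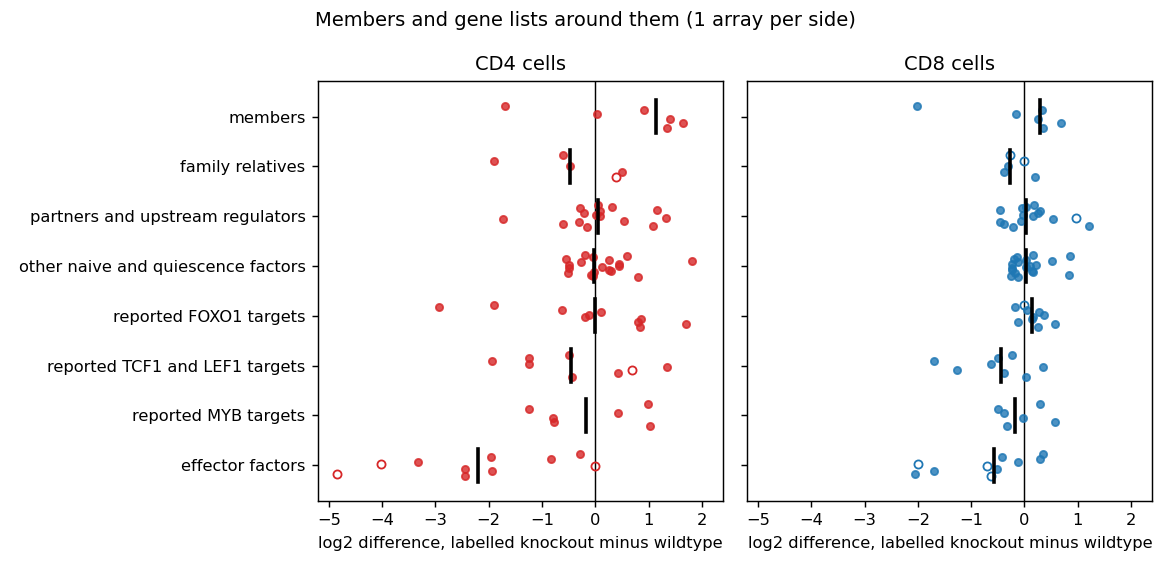
Log2 difference in signal between labelled knockout and wildtype (horizontal axis) for the genes of each list above the floor on at least 1 array, in CD4 cells (left) and CD8 cells (right), with the list median as a black bar. Open circles have at least 1 array at the floor, so that the plotted value is a bound or, where both are at the floor, 0; the effector factors lie furthest to the left, with a CD4 median of -2.2.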

How the data were processed

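The authors measured RNA of 4 sorted T cell samples on Affymetrix MOE430A_2.0 arrays. Per the labels' protocols, TRIzol was used for extraction and the cRNA was biotinylated. GCOS 1.4 and MAS5 are named in the submitters' processing notes, without further steps. The authors deposited linear intensities, 1 for each probe set, in 1 channel. Array medians were 189 (labelled knockout CD4), 193 (knockout CD8), 235 (wildtype CD4) and 224 (wildtype CD8), and 2% trimmed means lay between 980 and 983, so the values appear scaled to a common level; the scaling rule itself is unknown.

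Of 22690 probe sets, 64 controls were left out; 20380 have 1 symbol in the platform annotation, 691 have several and 1555 are not listed and stay unnamed. A 5′ probe set of the 18S ribosomal RNA control was uneven, at 3562 (CD4) and 525 (CD8) under the knockout label against 7147 and 7228 under the wildtype label. Pearson correlations of log2 signals between arrays ran from 0.944 to 0.974.

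Signals below the 40th percentile (93.9) were set to it before log2. Where a gene had several probe sets, the one highest on average in log2 was used, which made 12393 genes. Folds against a floored array are lower bounds. Limma 3.58.1 in R 4.3.3 (eBayes after lmFit, with a trend; 6.1 prior degrees of freedom) fitted subset and genotype label on 15273 probe sets, and was tested on simulated data. It takes the arrays as independent; whether CD4 and CD8 cells came from different mice is not in the labels. Adjusted p-values describe these arrays only. Tables and figures were made in Python 3.11.15 with pandas 2.3.3, numpy 2.4.6 and matplotlib 3.10.9.

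The members, the 7 lists and the markers were chosen with earlier results of these data known. Named genes are the members, Gfi1 and Cd44, the 3 genes nearest in pattern to each member that spans at least 2-fold, and list genes at least 2-fold apart in both subsets or called by limma. Further list genes (such as Foxo3, Mybl2, Maff, Ctnnb1, Peli1, Tsc22d3, Klf2, Bcl6 and Prdm1) were named after their values were seen. Alternatives were 2 other scalings, other floors, a pseudocount of 16, other choices of probe sets, no trend and a stricter filter.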

Additional observations from a re-analysis of the deposited data

Results flagged for a closer look

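Foxo1 differed in direction between the subsets in 2 of its 3 probe sets above the floor, higher under the knockout label in CD4 and lower in CD8 cells. The CD8 difference minus the CD4 difference was -0.18 on the log2 scale for the strongest probe set and -0.29 for the other. The remaining probe set was higher in both subsets. Each subset has 1 array a side, and the difference was not tested.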

How the results depend on the processing

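No paired analysis was possible because each group has 1 array, and for the same reason no replicate could be left out. The log2 differences of the 6 genes kept their direction under all alternatives run, except Foxo1 in CD8 cells, which ranged from -0.18 to 0.07 and was above 0 with median centring (0.07) and with the mean of its probe sets (0.04). Without multi-transcript probe sets only Satb1, Foxp1 and Foxo1 can be measured, and 0 of these 3 passed 1.5-fold upward and 0 downward in both subsets, against 1 and 1; the cause is that Bach2 and Myb drop out. Medians of the members kept their sign throughout.

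Counts of limma calls depended strongly on the setting. As fitted, 174 probe sets were called, 3 of them members and all 3 Myb. Without the trend limma called 16 in all, 0 of the members and 0 of Myb, although 10 member probe sets and 1764 in all had an unadjusted p under 0.05. Quantile normalization gave 25 calls, median centring 32 and 1 probe set per gene 56, each with 1 member call, a Myb probe set. A floor at the 60th percentile gave 89. Restricted to probe sets that exceeded the floor everywhere there were 453 calls with 6 members, with a floor at the 25th percentile 589 with 7, and with log2 of the value plus 16 there were 644 with 7; under these 3 settings Lef1 (adjusted p from 0.0292 to 0.0398) and Bach2 (from 0.00344 to 0.00677) were called by limma, as were 1 or 2 probe sets of Satb1. The cause was not tested. Over all alternatives the strongest Myb probe set had an adjusted p from 5.79e-06 to 0.102.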
